A study of Homo sapiens with 24 samples.

Results

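Chromatin binding of S100A8 and S100A9 was examined at 9 genes of matrix proteolysis and plasminogen activation, which are MMP1, MMP3, MMP9, MMP10, MMP13, MMP14, PLAU, PLAUR, and TIMP1. They are 9 of 20090 protein-coding genes on chromosomes 1 to 22 and X, and they were taken by name. For each gene, peaks were counted when q was at most 1e-07 and when the summit, the base of highest signal in the peak, lay in the gene body or within 50 kb of it. The promoter comprised the 1500 bp before and the 250 bp after any transcription start site (TSS) of the gene, and a promoter peak had its summit there. The study asked where these 2 secreted proteins bind chromatin before and during transformation of breast epithelial cells.

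MCF-10A cells are human mammary epithelial cells that are not transformed on their own. The ER-Src line made from them holds an inducible oncogene, a viral Src kinase that stays inactive until tamoxifen binds the estrogen receptor part to which it is joined. A retroviral vector added S100A8 or S100A9 with a Flag epitope, and infected cells were selected with hygromycin as stable lines. The S100A8-Flag and S100A9-Flag lines were grown for 24 h with 1 μM hydroxytamoxifen (TAM) or with its vehicle, ethanol (EtOH). Chromatin was precipitated with a Flag antibody after cross-linking of proteins to each other and to DNA. Peak lists of 11 libraries were used: S100A8-Flag in EtOH (n = 2), S100A8-Flag in TAM (n = 3), S100A9-Flag in EtOH (n = 3), and S100A9-Flag in TAM (n = 3). All 11 carry the Src fusion, the endogenous S100A8 and S100A9 genes, and an ectopic tagged protein. The study's methods call the replicates biological, but the labels name no separate cultures. The p values measure the spread between these libraries, part of which may be technical.

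The EtOH libraries had 1853 to 4609 peaks at q ≤ 1e-07 (median 4327, n = 5), and the TAM libraries had 21518 to 40735 (median 24805, n = 6). The lists hold no read numbers, so the depth of the libraries is unknown, and a deeper library cannot be told apart from stronger binding. Coding exons of S100A9, where an introduced cDNA would add signal, held a summit in all 6 libraries of S100A9-Flag but also in 1 of the 5 of S100A8-Flag. No summit lay over coding exons of S100A8 in any library. A peak list holds no RNA, so that markers of the cell type could not be examined.

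Matrix metalloproteases are zinc enzymes that are mostly secreted as inactive precursors and cut collagens and other matrix proteins once activated. Urokinase, the product of PLAU, binds its receptor on the cell surface, the product of PLAUR, and turns plasminogen into plasmin, which cuts fibrin and can activate metalloprotease precursors. TIMP1 binds active metalloproteases and inhibits them. Genes of both systems are well known targets of AP-1 and ETS transcription factors and of Src signaling in epithelial cells.

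Reference sequence (GRCh37, plus strand, 5′ to 3′) around the summits shows the DNA at which the proteins were found. A window of up to 100 bp is given for 5 of the 7 promoter sites and, for MMP1, MMP9, MMP10, and MMP13, for the site that the most libraries called. A site is a merged region with peaks at q ≤ 1e-07 in at least 2 libraries. Capitals mark a match to one of the motifs named further on.
MMP1 and MMP10, shared distal site, chr11:102678873-102678972: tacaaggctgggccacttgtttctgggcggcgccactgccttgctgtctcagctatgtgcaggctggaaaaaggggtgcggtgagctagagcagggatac
MMP9, distal, in an intron of ZNF335, chr20:44600482-44600581: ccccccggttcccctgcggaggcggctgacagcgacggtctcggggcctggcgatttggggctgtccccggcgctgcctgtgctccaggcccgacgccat
MMP13, distal, chr11:102776782-102776881, AP-1 and STAT motifs in capitals: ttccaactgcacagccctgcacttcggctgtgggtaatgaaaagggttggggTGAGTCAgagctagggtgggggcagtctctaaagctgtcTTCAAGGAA
MMP14, promoter, chr14:23305676-23305775, KLF/SP1 motif in capitals: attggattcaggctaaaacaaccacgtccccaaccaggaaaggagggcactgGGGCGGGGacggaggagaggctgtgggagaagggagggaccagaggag
MMP14, promoter of an internal TSS, chr14:23306555-23306654: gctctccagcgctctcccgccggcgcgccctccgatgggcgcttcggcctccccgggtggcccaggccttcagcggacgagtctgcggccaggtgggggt
PLAU, promoter of an upstream TSS, chr10:75668883-75668934, the 52 bp of the window before that TSS: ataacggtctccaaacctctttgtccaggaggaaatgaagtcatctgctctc
PLAUR, promoter of an internal TSS, chr19:44173123-44173222, NF-kB motif in capitals: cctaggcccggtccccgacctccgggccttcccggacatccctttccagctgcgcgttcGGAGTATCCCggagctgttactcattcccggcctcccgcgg
TIMP1, promoter, chrX:47441681-47441780: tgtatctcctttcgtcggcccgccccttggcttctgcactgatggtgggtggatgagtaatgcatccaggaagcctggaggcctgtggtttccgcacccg

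In TAM, PLAU and MMP14 carried the most peaks of the 9 genes, and the collagenase and stromelysin genes carried few. Per 100 kb of window, the mean over the 6 TAM libraries was 6.77 peaks at PLAU, 6.67 at MMP14, 2.81 at PLAUR, 2.48 at MMP9, 2.24 at TIMP1, 1.55 at MMP3, 1.53 at MMP1, 1.06 at MMP10, and 0.444 at MMP13. The median over all 18756 genes with a peak in any library (93.4% of genes) was 1.82 per 100 kb. The ranges over the TAM libraries overlapped for every pair of neighbors in this order. The number of peaks per gene, averaged over the 2 proteins, was higher in TAM for 5 of the 9 genes, which were MMP14, PLAU, PLAUR, TIMP1, and MMP9 (exact permutation of the treatment within each protein, two-sided, Benjamini-Hochberg adjusted p under 0.05 over 18756 genes). By the same test 65.3% of all genes tested were higher, and none was lower. Before adjustment, 7 of the 9 genes and 69.9% of all genes had a p under 0.05. After adjustment the share among the 9 genes (55.6%) was below that of all genes, and before adjustment (77.8%) it was above. With only 9 genes, neither gap was read as a difference. The median difference was 2 peaks for the 9 genes and 2.33 peaks for all genes tested.

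**Figure D1:**
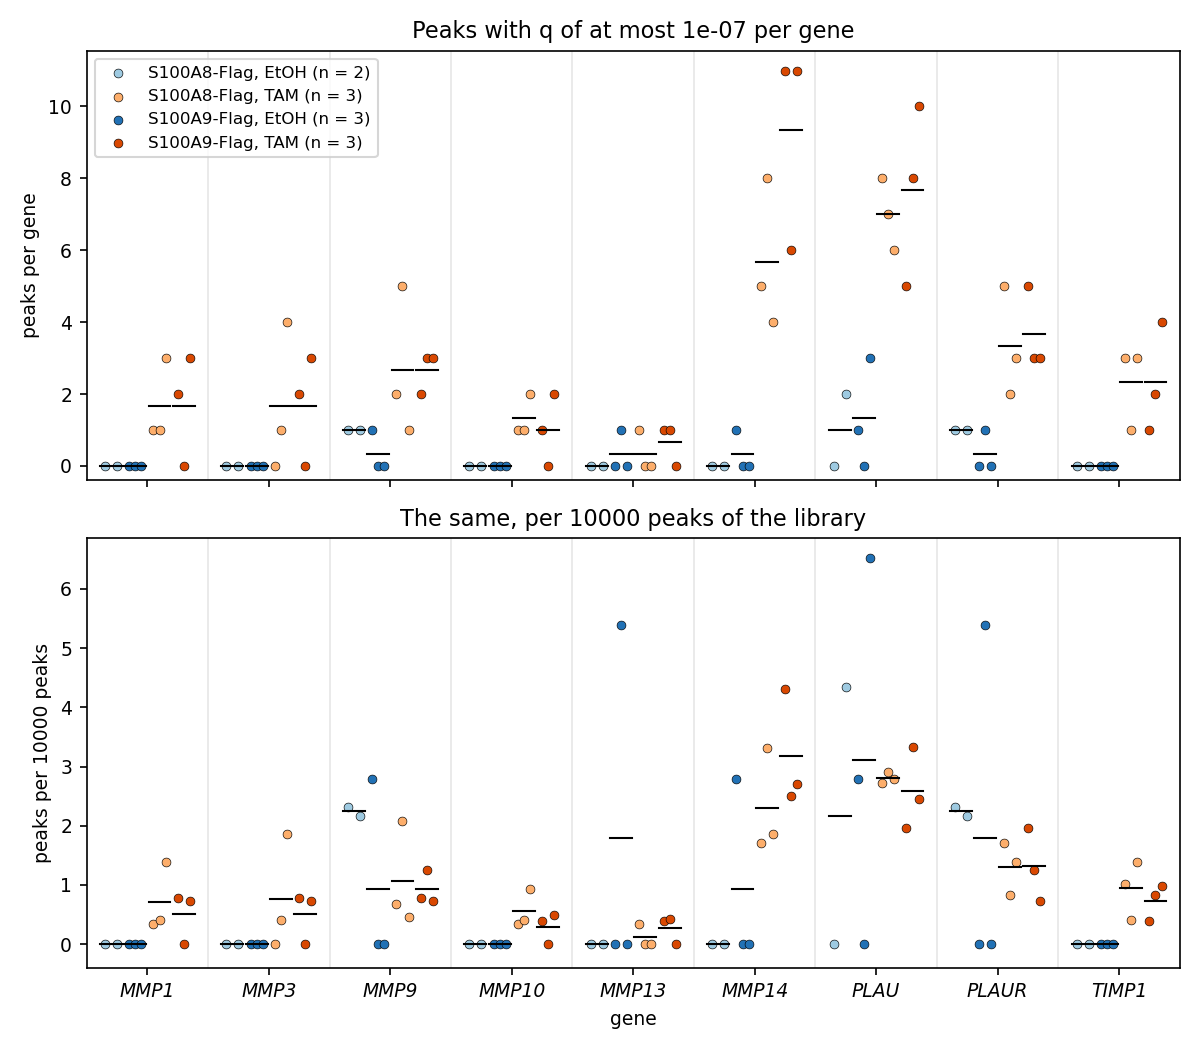
Peaks with q ≤ 1e-07 in the gene body or within 50 kb of it for each of the 9 genes (upper panel, peaks per gene; lower panel, the same per 10000 peaks of the library). Each point is a library, bars are means, blue is EtOH, and orange is TAM. In the upper panel MMP14 reached 4 to 11 peaks and PLAU 5 to 10 in TAM, and in the lower panel the EtOH and TAM points of PLAU, PLAUR, and MMP9 overlapped.

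These calls depended on the settings and on the S100A8-Flag EtOH libraries. Within 20 kb of the gene, 3 of the 9 genes were called, as were 4934 of all 17731 genes tested. With q ≤ 1e-10, 3 of the 9 were called, as were 5751 of all 17980. Within the gene body alone, none of the 9 and 0 of all 13968 were called. There, 2 of 9 and 3980 of all genes had an unadjusted p under 0.05. When each library was held to its 1853 peaks with the lowest q, no gene was called, MMP9 had a difference of -0.25 peaks, and PLAUR had -0.0833 peaks. Without S100A8-Flag EtOH replicate 1 or replicate 2, no gene passed, since 0.025 was then the smallest p, and the adjusted p of MMP14, PLAU, PLAUR, and TIMP1 was 0.0514 and 0.0507, respectively (exact permutation).

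MMP14 encodes a membrane-anchored metalloprotease (MT1-MMP) that cuts collagen at the cell surface and activates the MMP2 precursor. In its window (chr14:23305769-23318250, plus strand, and 50 kb on either side), S100A8-Flag had 0 and 0 peaks in EtOH and 5, 8, and 4 in TAM. With S100A9-Flag, the counts were 1, 0, and 0 in EtOH and 11, 6, and 11 in TAM. Every TAM library was above every EtOH library, as for 38.8% of all genes tested. The mean difference was 7.33 peaks (exact permutation p = 0.01, the smallest possible, adjusted p = 0.0226).

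The MMP14 window had 13 sites, and none was called in EtOH. At the promoter site, with its summit 68 bp upstream of the canonical TSS, fold enrichment over input was 7.79 and 6.70 in S100A8-Flag TAM replicates 1 and 2, and 10.2 and 6.22 in S100A9-Flag TAM replicates 1 and 3. A weaker peak of 4.30-fold was listed for S100A9-Flag TAM replicate 2 and none for S100A8-Flag TAM replicate 3. Only 1 of the 5 EtOH libraries listed a weaker peak there, of 4.36-fold. The adjacent site 811 bp downstream, in an intron, was called in 3 TAM libraries at 9.36-, 8.45-, and 9.71-fold. The 3 others listed it below the threshold, as did 1 EtOH library, so that 5 of 6 TAM libraries called a promoter peak at one or the other site and no EtOH library did.

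A pair of intergenic sites lay downstream of the gene. The site at 16610 bp from the canonical TSS was called in 5 TAM libraries, with 11.6-, 7.88-, and 7.75-fold in S100A8-Flag replicates 1 to 3, 10.5-fold in S100A9-Flag replicate 1, and 8.99-fold in replicate 3. That at 14532 bp was called in 4 TAM libraries at 8.24- to 13.0-fold, 3 of them S100A9-Flag. Upstream, 3 sites lay at promoters of the neighbor genes SLC7A7 and MRPL52, and downstream 2 lay at promoters of LRP10, so that 5 of the 13 sites belong to promoters of other genes. The SLC7A7 site 13611 bp upstream had the highest fold enrichment in the window, 16.1 in S100A9-Flag TAM replicate 3. With peaks at promoters of other genes left out, a setting chosen after the data were seen, the difference for MMP14 was 4.67 peaks (exact permutation, adjusted p = 0.0314).

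PLAU encodes urokinase. Its window (chr10:75668935-75677254, plus strand, and 50 kb on either side) held 0 and 2 peaks in the S100A8-Flag EtOH libraries and 8, 7, and 6 in the TAM libraries. With S100A9-Flag, it held 1, 0, and 3 peaks in EtOH and 5, 8, and 10 in TAM. The 2 treatments did not overlap, and the mean difference was 6.17 peaks (exact permutation p = 0.01, adjusted p = 0.0226). Of the 12 sites, 11 lay outside any promoter, all of them intergenic.

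The remaining PLAU site lay 2 bp upstream of the TSS of another annotated transcript and 1957 bp upstream of the canonical TSS. An enhancer upstream of the urokinase promoter with ETS and AP-1 elements is well known in this general region. The site was called with 8.07-, 6.74-, and 6.64-fold enrichment in S100A8-Flag TAM replicates 1 to 3 and with 10.3- and 7.76-fold in S100A9-Flag TAM replicates 2 and 3. S100A9-Flag TAM replicate 1 listed it at 5.36-fold, below the threshold. In EtOH it was listed in 1 of 5 libraries, S100A8-Flag replicate 2, at 7.77-fold with a −log10 q of 6.89, just short of the threshold of 7. A promoter peak at PLAU in 5 of 6 TAM libraries against 0 of 5 EtOH libraries gave an exact permutation p of 0.04 and an adjusted p of 0.207, as at MMP14. Over 12737 genes with a promoter peak in any library, none passed after adjustment, and 19.3% had a p under 0.05. Within the promoter window of the canonical PLAU TSS, no library had a peak at q ≤ 1e-07.

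Distal PLAU sites were called in up to 7 libraries. The site 31319 bp upstream was called in 5 TAM libraries (7.19, 14.2, and 8.24-fold for S100A8-Flag, 9.87 and 5.53-fold for S100A9-Flag replicates 2 and 3), and no EtOH library listed any peak there. The site 21416 bp downstream of the canonical TSS reached 16.1-fold in S100A8-Flag TAM replicate 1, 13.1-fold in S100A9-Flag TAM replicate 1, and 11.5-fold in replicate 3, and it was also called in S100A8-Flag EtOH replicate 2 at 7.24-fold. At 29632 bp downstream, the fold enrichment in 2 S100A9-Flag EtOH libraries (10.5 and 9.91) was within the range of the TAM libraries that called it (6.65 to 10.9). The site 23655 bp upstream was called in 2 EtOH libraries and 1 TAM library.

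PLAUR encodes the urokinase receptor, a lipid-anchored surface protein. Its window (chr19:44150247-44174699, minus strand, and 50 kb on either side) held 1 and 1 peaks in the S100A8-Flag EtOH libraries and 5, 2, and 3 in TAM. For S100A9-Flag there were 0, 1, and 0 peaks in EtOH and 5, 3, and 3 in TAM. No TAM library was as low as an EtOH library, and the difference was 2.83 peaks (exact permutation p = 0.01, adjusted p = 0.0226).

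PLAUR alone among the 9 genes was called at a promoter in both treatments, in 6 of 6 TAM libraries and in 3 of 5 EtOH libraries. Its main promoter site, 103 bp upstream of the canonical TSS and inside an untranslated exon of a longer PLAUR transcript, was the single site of the 9 genes that all 6 TAM libraries called, against 11.2% of all sites in the genome. In TAM it had a fold enrichment of 5.94, 5.91, and 9.89 for S100A8-Flag and of 13.6, 21.7, and 10.3 for S100A9-Flag. In EtOH it was listed in every library, at 7.70- and 5.29-fold for S100A8-Flag and at 6.33-, 8.71-, and 5.56-fold for S100A9-Flag, of which the first and the fourth passed the threshold. Of the 5 EtOH values, 3 lay within the range of S100A8-Flag in TAM and 2 below it, and all 5 lay below the 3 values of S100A9-Flag in TAM. These folds are over each library's own input and were not tested between libraries.

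Another PLAUR promoter site, 1148 bp downstream in an intron and upstream of an internal TSS, was called in 5 TAM libraries at 5.79- to 9.28-fold and in S100A8-Flag EtOH replicate 2 at 9.01-fold. A distal site 5412 bp upstream was called in S100A8-Flag TAM replicate 2 at 8.37-fold and in all 3 S100A9-Flag TAM libraries at 7.03-, 8.99-, and 6.13-fold, and no EtOH library listed a peak there. The remaining site lay at the promoter of ZNF428, a neighbor gene.

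TIMP1 encodes a secreted inhibitor of metalloproteases and lies within an intron of SYN1, on the opposite strand. Its window (chrX:47441807-47446188, plus strand, and 50 kb on either side) had no peak in the 5 EtOH libraries. It had 3, 1, and 3 peaks in S100A8-Flag TAM and 1, 2, and 4 in S100A9-Flag TAM, which is a difference of 2.33 peaks (exact permutation p = 0.01, adjusted p = 0.0226). A gene with no peak in EtOH was not unusual, as 27.5% of the genes tested had none.

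The TIMP1 promoter site, 104 bp upstream of the canonical TSS, was called in S100A8-Flag TAM replicate 3 at 8.31-fold and in the S100A9-Flag TAM libraries at 11.8-, 7.82-, and 10.9-fold. Weaker peaks were listed in S100A8-Flag TAM replicate 1 (5.97-fold) and in 2 EtOH libraries (7.51- and 5.88-fold). For a promoter peak at TIMP1, 4 of 6 TAM libraries against 0 of 5 EtOH libraries gave an exact permutation p of 0.06 and an adjusted p of 0.267. A site 2730 bp upstream was called in 4 TAM libraries at 7.66- to 10.6-fold, with no peak listed in EtOH. Another site, at the promoter of ARAF, was called in the 3 S100A8-Flag TAM libraries only, and the 3 S100A9-Flag TAM libraries listed it below the threshold at 3.46- to 6.13-fold.

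MMP9 encodes gelatinase B, which degrades denatured collagen and basement membrane type IV collagen. In its window (chr20:44637547-44645200, plus strand, and 50 kb on either side), the 2 EtOH libraries of S100A8-Flag had 1 peak each and its TAM libraries had 2, 5, and 1. S100A9-Flag had 1, 0, and 0 in EtOH and 2, 3, and 3 in TAM. The treatments overlapped at 1 peak, and the difference of 2 peaks had an exact permutation p of 0.03 and an adjusted p of 0.0460. This call was lost when any library but S100A8-Flag TAM replicate 3 was left out (adjusted p 0.0721 to 0.0900, exact permutation).

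No library had a peak at q ≤ 1e-07 in the MMP9 promoter, and the single weaker one was in S100A9-Flag TAM replicate 3, 995 bp upstream, at 5.83-fold. The most often called site was placed by 1 summit, 37015 bp upstream in an intron of ZNF335. It was called in 5 TAM libraries at 6.13- to 12.6-fold and in both S100A8-Flag EtOH libraries at 8.35- and 6.89-fold. This site was 1391 bp wide, and the summits of the calling libraries spread over 672 bp, so they need not all lie in that intron. With peaks at promoters of other genes left out, a setting chosen after the data were seen, the difference for MMP9 was 1.5 peaks (exact permutation, adjusted p = 0.0493). Some peaks in the MMP9 window thus lay at promoters of other genes. An intergenic site 15292 bp upstream was called in 5 TAM libraries (10.6-, 9.36-, and 7.20-fold for S100A8-Flag, 7.82- and 5.49-fold for S100A9-Flag replicates 2 and 3) and was listed below the threshold in 3 EtOH libraries. Within the gene, an intronic site was called in 1 TAM and 1 EtOH library.

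MMP1, MMP3, MMP10, and MMP13 lie in a cluster of metalloprotease genes on chromosome 11, and the windows of MMP1, MMP3, and MMP10 overlap, so that their counts share peaks and are not independent. MMP1 and MMP13 encode collagenases that cut fibrillar collagens, and MMP3 and MMP10 encode stromelysins with a broad range of matrix substrates. The first 3 genes had no peak in any EtOH library. In TAM, MMP1 (chr11:102660132-102668891, minus strand) had 1, 1, and 3 peaks for S100A8-Flag and 2, 0, and 3 for S100A9-Flag. MMP3 (chr11:102706532-102714340, minus strand) had 0, 1, and 4 peaks for S100A8-Flag and 2, 0, and 3 for S100A9-Flag. MMP10 (chr11:102641233-102651359, minus strand) had 1, 1, and 2 peaks for S100A8-Flag and 1, 0, and 2 for S100A9-Flag. S100A9-Flag TAM replicate 2 thus had no peak at any of the 3 genes.

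The differences were 1.67 peaks for MMP1 (exact permutation p = 0.04, adjusted p = 0.0572), 1.67 for MMP3 (p = 0.12, adjusted p = 0.144), and 1.17 for MMP10 (p = 0.04, adjusted p = 0.0572), and none passed. Without S100A9-Flag TAM replicate 2, MMP1 and MMP10 each had an adjusted p of 0.0414 (exact permutation). A single site fell into the windows of all 3 genes. It lay 10032 bp upstream of the MMP1 TSS and was called in S100A8-Flag TAM replicates 2 and 3 at 6.24- and 8.22-fold and in S100A9-Flag TAM replicates 1 and 3 at 10.3- and 5.30-fold. Both S100A8-Flag EtOH libraries listed a weaker peak there, of 6.65- and 5.29-fold.

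At the promoters of these genes binding was sparse. The MMP3 promoter site, 126 bp upstream of the TSS, was called in S100A8-Flag TAM replicate 3 at 8.79-fold and in S100A9-Flag TAM replicate 3 at 6.37-fold. The MMP10 promoter had a peak at q ≤ 1e-07 in S100A8-Flag TAM replicate 1 alone, 39 bp downstream of the TSS, at 8.16-fold. MMP1 promoter peaks stayed below the threshold, at 4.63- to 5.56-fold in 3 TAM libraries and 1 EtOH library.

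MMP13 (chr11:102813724-102826461, minus strand) had the fewest peaks of the 9 genes. S100A8-Flag gave 0 and 0 in EtOH and 1, 0, and 0 in TAM, and with S100A9-Flag the counts were 0, 1, and 0 in EtOH and 1, 1, and 0 in TAM. The treatments overlapped (difference 0.333 peaks, exact permutation p = 0.6, adjusted p = 0.628). Its single site, 49629 bp downstream of the canonical TSS, was called in S100A9-Flag TAM replicates 1 and 2 at 8.04- and 7.28-fold. The MMP13 promoter had 1 weaker peak of 3.42-fold, in S100A8-Flag TAM replicate 1.

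**Figure D2:**
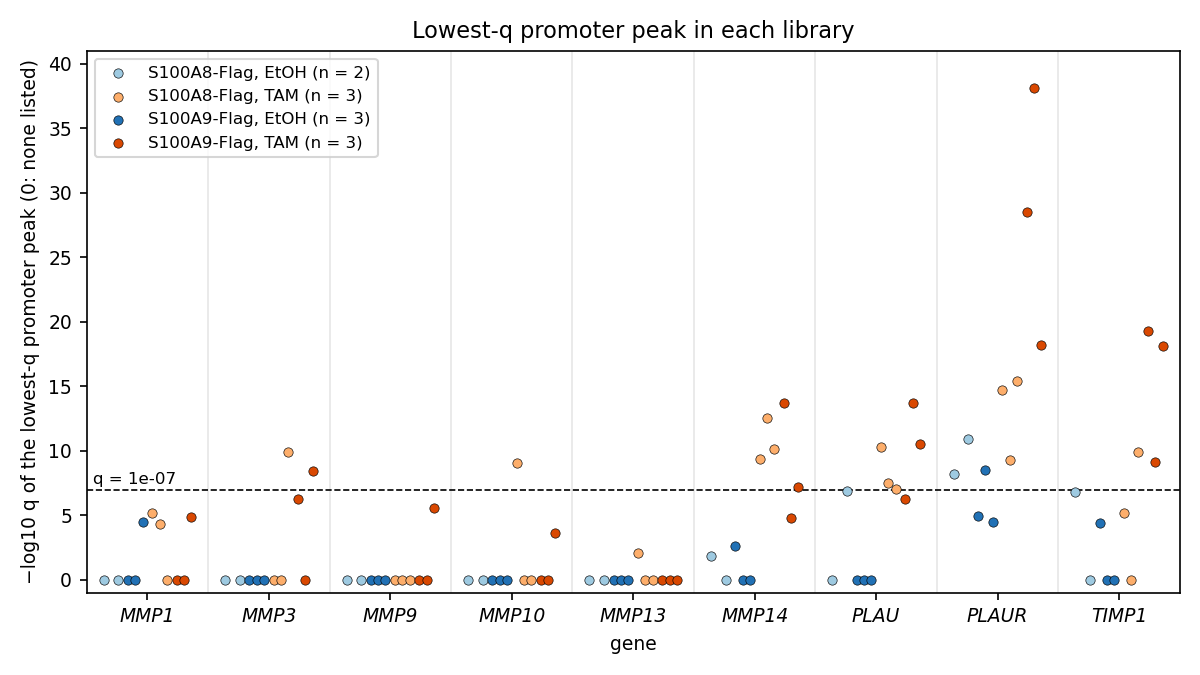
−log10 q of the promoter peak with the lowest q in each library for the 9 genes. A value of 0 means that no peak was listed, the dashed line is the threshold, and −log10 q also depends on the depth of a library, which is unknown. PLAUR was above the line in 6 TAM and 3 EtOH libraries and reached 38.1, while MMP14, PLAU, and TIMP1 were above it in 5, 5, and 4 TAM libraries and in no EtOH library.

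Considered as promoters, 6 of the 9 genes had a promoter peak at q ≤ 1e-07 in at least 1 library, as did 63.4% of all genes. In at least 2 TAM libraries of either protein, 4 of 9 had one (MMP14, PLAU, PLAUR, and TIMP1), compared with 50.8% of all genes. PLAU was among them only through the TSS of a transcript other than the canonical one. In at least 2 EtOH libraries of either protein, 1 of 9 had a promoter peak (PLAUR), compared with 9.06% of all genes. A peak anywhere in the window in all 6 TAM libraries was found at 5 of 9 genes and at 64.5% of all genes.

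Together, the 9 windows held 38 distinct sites of 38593 in the genome. Each site was placed by 1 summit. By this summit, 7 were promoter sites of the 9 genes and 7 were promoter sites of other genes. The other 24 were outside promoters, 17 of these intergenic and 7 within a gene. In all, 31.9% of sites in the genome were at promoters. Of the 38, 10 were called in only 2 libraries, as were 32.6% of all sites. By gene, MMP14 had 13, PLAU 12, PLAUR 4, MMP9 and TIMP1 3 each, MMP1 and MMP3 2 each, and MMP10 and MMP13 1 each, with shared sites counted at each gene. Of the 38 sites, 30 (78.9%) were not called in EtOH, as was true of 71.3% of all sites. At 19 of these 30 an EtOH library listed a weaker peak, and at 11 none did. No site was absent from all TAM libraries. At 5 sites the treatment had an unadjusted p under 0.05, all higher in TAM, compared with 14.1% of all sites, and none passed after adjustment (lowest adjusted p = 0.283, exact permutation).

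**Figure D3:**
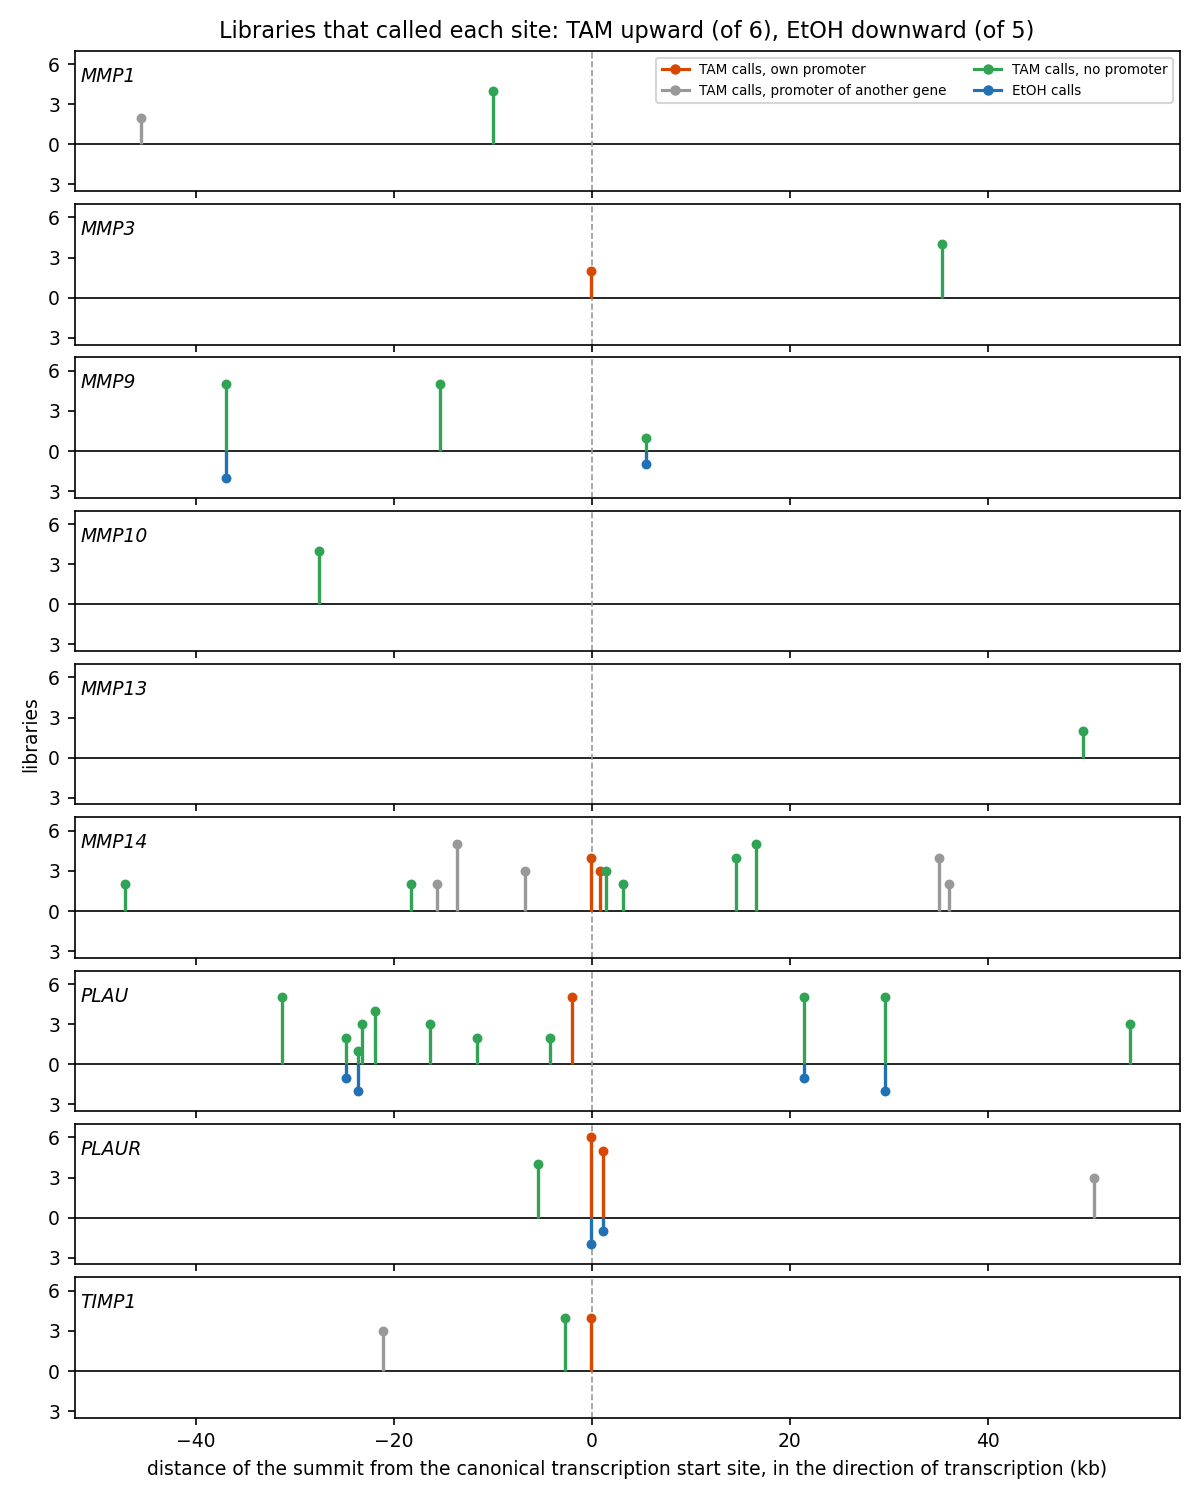
Sites at the 9 genes by the distance of the summit from the canonical transcription start site in kb. Stems upward give the number of TAM libraries (of 6) and stems downward the number of EtOH libraries (of 5) that called the site. MMP14 and PLAU had 13 and 12 sites spread over their windows, while the sites of PLAUR and TIMP1 included promoter sites called in 6 and 4 TAM libraries.

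The overall rise in peak number moved with these results. The 9 genes together had 2 to 4 distinct peaks per EtOH library (2.80 ± 0.837, SD, n = 5) and 21 to 34 per TAM library (25.7 ± 4.55, SD, n = 6). Per 10000 peaks of the library, this was 7.79 ± 2.33 in EtOH and 9.46 ± 0.868 in TAM. When the test was repeated on peaks per 10000 peaks, no gene in the genome passed after adjustment, and 15.7% had an unadjusted p under 0.05 with a higher share in TAM and 5.46% with a lower one. Of the 9 genes, 4 were higher at an unadjusted p under 0.05. At 1 of the 9, TIMP1, every TAM library was above every EtOH library on this scale, compared with 8.56% of all genes. The 4 genes were TIMP1 (0.840 per 10000, exact permutation p = 0.01, adjusted p = 0.0860), MMP14 (2.27, p = 0.03, adjusted p = 0.177), MMP1 (0.612, p = 0.04, adjusted p = 0.189), and MMP10 (0.428, p = 0.04, adjusted p = 0.189). TIMP1, MMP1, and MMP10 had no peak in any EtOH library, so their EtOH share was 0 whatever the list size. Their unadjusted p values equal those of the peak counts, and at these genes the scale cannot correct for the shorter EtOH lists. MMP1 and MMP10 also share peaks. PLAU did not stand out on this scale, with 0.0577 per 10000 more in TAM and an exact permutation p of 0.95. For PLAUR, MMP9, and MMP13, the difference in share, TAM minus EtOH, was -0.707, -0.585, and -0.708 per 10000, with exact permutation p of 0.58, 0.3, and 1. These directions depended on the settings. At q ≤ 1e-10 the difference was 0.916 for MMP9 and 0.414 for PLAUR, and without S100A9-Flag EtOH replicate 2 it was 0.192 for both PLAUR and MMP13. With peaks at promoters of other genes left out, it was 0.164 for MMP9, -1.09 for PLAUR, and -0.708 for MMP13.

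S100A8-Flag and S100A9-Flag did not differ detectably at any of the 9 genes. Averaged over treatments, S100A9-Flag minus S100A8-Flag was between -0.333 and 0.50 peaks for 8 genes and 2 peaks for MMP14 (exact permutation p = 0.16, adjusted p = 1). None of the 9 had an unadjusted p under 0.05, and of all genes 0.395% did so with more S100A9-Flag and 0.299% with more S100A8-Flag peaks, none after adjustment. The rise from EtOH to TAM at MMP14 was 5.67 peaks for S100A8-Flag and 9 for S100A9-Flag, and the difference of 3.33 peaks between these had an exact permutation p of 0.24. For the other 8 genes this difference was between -0.333 and 1 peaks, and none of the 9 had a p under 0.05, compared with 2.03% of all genes with a larger rise for S100A9-Flag and 0.032% with a smaller one. Of the 38 sites, 30 were called in TAM for both proteins (79.9% of all sites), 3 for S100A8-Flag only (5.51% of all sites), and 5 for S100A9-Flag only (14.4% of all sites). With 2 or 3 libraries of each kind, these tests do not show that the proteins bound alike.

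AP-1 is a dimer of FOS and JUN proteins that controls many protease genes. Its motif was searched as TGANTCA, in which N is any base, so TGATTCA at PLAU, 21862 bp upstream, was also counted. This motif was found within 50 bp of the summit at 11 of the 24 sites of the 9 genes outside promoters, compared with 30.8% of all such sites, and at 0 of the 14 at promoters, compared with 7.20%. PLAU held 7 of the 11. The matches, in capitals, are shown with flanking bases on the plus strand of GRCh37, since most of them lie at PLAU.
PLAU, 23655 bp upstream, chr10:75647234-75647262: gaagcagcttcTGAGTCAgagccccagaa
PLAU, 23213 bp upstream, chr10:75647675-75647703: tgccagagagcTGACTCAgggggcggcat
PLAU, 21862 bp upstream, chr10:75649002-75649030: ctgccaaggccTGATTCAaatgaggaagc
PLAU, 16350 bp upstream, chr10:75654493-75654521: cttggcagaacTGACTCActgtggtgtct
PLAU, 11577 bp upstream, chr10:75659280-75659308: atggagggaagTGACTCAgccaggttcat
PLAU, 21416 bp downstream of the TSS, chr10:75692269-75692297: ccgatgggaaaTGACTCAgcattgaagtt
PLAU, 54350 bp downstream of the TSS, chr10:75725206-75725234: tgggacaatcgTGACTCActgcaacctct
PLAUR, 5412 bp upstream, chr19:44179750-44179778: cttcctcctcgTGACTCAcctgggcctca
TIMP1, 2730 bp upstream, chrX:47439055-47439073: cTGACTCAggtttcaaaga
MMP13, 49629 bp downstream of the TSS, chr11:102776823-102776851: aagggttggggTGAGTCAgagctagggtg
MMP14, 47190 bp upstream, chr14:23258624-23258652: tctaaccaacaTGAGTCAgcctaaccaac

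The centers of these matches lay 5 bp (MMP13) to 46 bp (TIMP1) from the summit. Of these sites, only those of PLAU 23655 bp upstream and 21416 bp downstream were called in an EtOH library. A further 6 motifs were searched on both strands in the same windows of the 38 sites. The ETS motif CGGAAG was found at 3 sites (7.30% of all sites), C/EBP (TTNCNNAA) at 4 (17.1%), and KLF/SP1 (CCCCGCCC) at 1 (5.09%). STAT (TTCNNNGAA) was found at 1 (2.82%), NF-kB at 1 (2.25%), and CREB (TGACGTCA) at 0 (0.643%). A match is a run of letters and no evidence of binding, and a site without one may hold a variant of the motif. The promoter windows of PLAU and TIMP1 and the shared MMP1 window matched none of the 7 motifs.

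Among 45 other genes of matrix proteolysis and the plasminogen system, 43 had a peak in at least 1 library, and 31 of these (72.1%) had more peaks in TAM by the test given above (65.3% of all genes). None had fewer. The median difference of the 43 was 2.92 peaks. Among the largest differences were those at CTSB, LRP1, SPINT1, S100A10, ENO1, ANXA2, ADAM8, SERPINF2, and MMP25, each with an exact permutation p of 0.01 and an adjusted p of 0.0226. These genes were picked by the size of this difference, so the low p values and the lack of overlap between treatments add no separate evidence. Every TAM library was above every EtOH library at 23 of the 43 genes (53.5%), compared with 38.8% of all genes tested. On the scale of peaks per 10000, none of the 43 passed after adjustment, and at an unadjusted p under 0.05 the share was higher in TAM for 7 (16.3%, against 15.7% of all genes) and lower for 2 (4.65%, against 5.46%). The genes just named went both ways. ADAM8 had a lower share in TAM, by -1.98 per 10000 (exact permutation p = 0.01, adjusted p = 0.0860). The differences for MMP25, S100A10, ANXA2, and SPINT1 were -1.27, -1.15, -0.311, and -0.0703 per 10000. For SERPINF2, ENO1, CTSB, and LRP1 they were 1.39, 1.37, 0.421, and 0.389 per 10000.

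CTSB, the lysosomal and secreted protease cathepsin B, had 1 to 2 peaks in EtOH and 8 to 27 in TAM. LRP1, an endocytic receptor that clears urokinase-inhibitor complexes and metalloproteases, had 0 to 5 and 7 to 24, and SPINT1, an inhibitor of the serine proteases matriptase and hepsin, had 0 to 5 and 10 to 16. S100A10 and ANXA2 form a complex that binds plasminogen at the cell surface, and they had 8 to 13 and 6 to 10 peaks in TAM after 1 to 3 and 0 to 3 in EtOH. ENO1, a glycolytic enzyme that also serves as a plasminogen receptor, had 0 to 3 peaks in EtOH and 6 to 10 in TAM, and its promoter was called in 6 of 6 TAM libraries, as were those of S100A10 and ANXA2.

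SERPINF2, the inhibitor of plasmin, had 0 to 1 and 4 to 13 peaks. ADAM8, a membrane metalloprotease-disintegrin, had 1 to 3 and 7 to 10, and MMP25, another membrane-anchored metalloprotease, had 0 to 4 and 5 to 11.

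**Figure D4:**
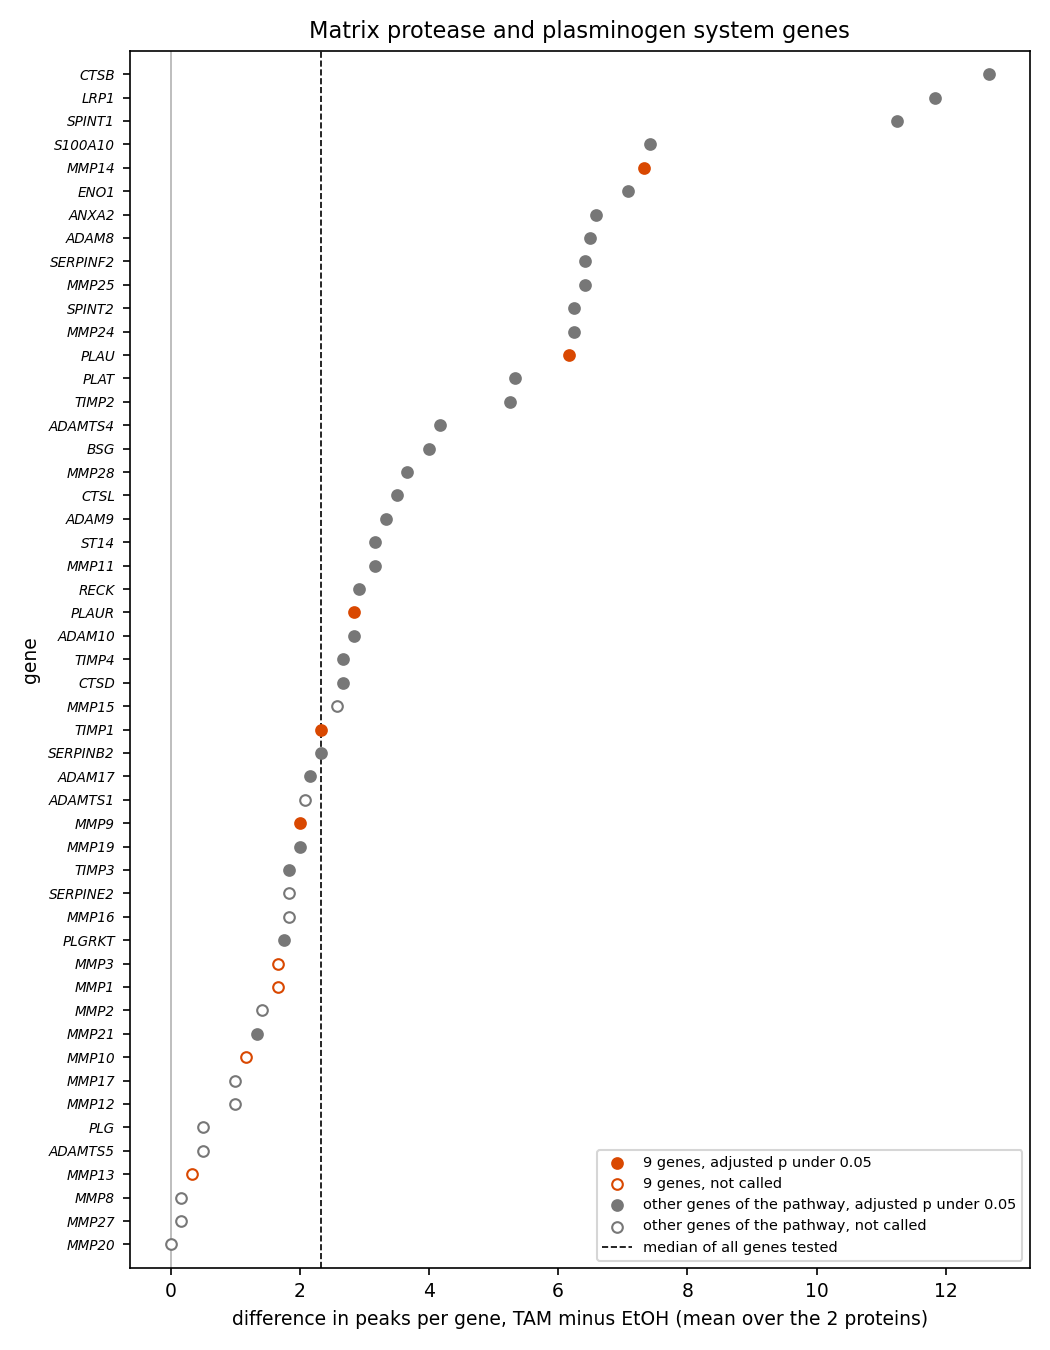
Difference in peaks per gene, TAM minus EtOH, averaged over the 2 proteins, for the 9 genes and for 42 other genes of the pathway with any peak. Filled points have an adjusted p under 0.05, and the dashed line is the median of all genes tested, 2.33 peaks. MMP14 and PLAU, at 7.33 and 6.17 peaks, lay among the higher values. MMP1, MMP3, MMP9, MMP10, and MMP13 lay below the median, and TIMP1 lay at it.

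The mean of log2(peaks + 1) over the 9 genes was compared over the 11 libraries with the peak counts of genes more than 1000 kb from any of them. The most similar named genes were PRKAR1B (Pearson r = 0.995), with 1 peak in each EtOH library and 6 to 12 in TAM, and PHACTR1 (r = 0.993), with 0 and 2 to 6. A gene known only by an identifier, ENSG00000284512, also had r = 0.995. All libraries share the difference in peak number between treatments, and the median r over 18531 genes was 0.825, with 23.7% above 0.9.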

How the data were processed

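Flag ChIP-seq reads had been aligned by the authors to hg19 (GRCh37) with Bowtie2, and narrow peaks had been called with MACS2 in each library against its own input, without pooling of replicates. Versions are not given in the sources used here. In the deposited lists each peak has a fold enrichment over input (a ratio), a −log10 p-value, a −log10 q-value, and a display score by the authors' MACS2 that was not used, and the lists reach q = 0.05. Inputs and other samples of the series were not analysed here.

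Only autosomal and X-chromosomal peaks with q ≤ 1e-07 were counted per protein-coding gene of GENCODE 44 lifted to GRCh37. Peaks that overlapped by at least 1 bp were merged into sites when at least 2 libraries had one. Exact permutation tests permuted treatment labels within protein (200 arrangements, smallest p = 0.01) and protein labels within treatment, two-sided by doubling the smaller tail, with Benjamini-Hochberg adjustment over all genes or sites. The scripts were tested on simulated data. Sequence came from GRCh37 with samtools 1.23.1; statistics used Python 3.11.15, numpy 2.4.6, and pandas 2.3.3.

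The 9 genes, the list of 45 other genes, and the tests were chosen with earlier results of these data known. Named were the 9 genes, the 10 other genes with the largest difference, promoter sites, and the 3 other sites of each gene called in the most libraries; AP-1 sites, the PLAU site called more often in EtOH, and neighbor-promoter sites named beyond this rule were chosen after their values were seen. Of the genes and sequences this rule names, 1 gene and 1 sequence are not reported here, and the PLAUR window 103 bp upstream, which lies in an untranslated exon, is not printed. Alternatives were other q thresholds, equal list sizes, other windows, promoters, and site widths, a log2 scale, omission of each library, and the replicate number as a block.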

Additional observations from a re-analysis of the deposited data

How the results depend on the processing

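The number of genes with more peaks in TAM (12240 of 18756, and 5 of the 9 genes) depended on the processing. With q ≤ 1e-10 it was 5751 of 17980, and 3 of the 9. With a window of 20 kb it was 4934 of 17731, and 3 of the 9. Within gene bodies it was 0 of 13968, and 0 of the 9, with 3980 genes at an unadjusted p under 0.05. With 1853 top peaks per library it was 0, and 0 of the 9, and the differences for MMP9 and PLAUR changed sign (-0.25 and -0.0833 peaks). With peaks at promoters of other genes left out, added after seeing the data, it was 7470 of 18422, and 5 of the 9. With every peak as deposited it was 14088 of 19781 genes tested, and 9 of the 9. Leaving out 1 library gave 0 to 9544 genes and 0 to 6 of the 9, with 0 for either S100A8-Flag EtOH library. The cause was not tested, except that fewer arrangements raise the smallest p. The comparisons by share, protein, promoter, site, and the difference of the rise between proteins gave 0 adjusted calls under every alternative run.

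Whether the replicate numbers pair the libraries could not be decided. Deviations from the group mean correlated between -0.0444 and 0.0412 over 5 same-numbered pairs of EtOH and TAM libraries. EtOH libraries held few peaks per gene, so these correlations could be near 0 with or without pairing. With the replicate block, 0 genes and 0 of the 9 were called, since 32 arrangements allow no p below 0.0625. Read depth is unknown and limits every count: a peak missing from a list may have been below the threshold at that depth.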
